A study of Thermothelomyces thermophilus ATCC 42464 with 6 samples.

Results

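Lytic polysaccharide monooxygenases of the AA9 family were followed at 4 gene loci of Myceliophthora thermophila (Thermothelomyces thermophilus), a mould that grows at high temperature on plant matter. The loci are MYCTH_112089, MYCTH_92668, MYCTH_80312 and MYCTH_79765. They were chosen by gene identifier, and all 4 were found among the 2228 genes of the deposited table. Their assignment to the family comes from that choice and was not checked here, because the gene table used gives no product names. The fungus is known to carry further AA9 genes, so a sum over the 4 loci is not the whole family.

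AA9 enzymes are secreted copper proteins. They cleave the chains at the surface of crystalline cellulose by oxidation, where hydrolases reach poorly, and the new chain ends then serve cellobiohydrolases. They need an electron donor and an oxygen-containing co-substrate, and a fungus usually carries several of them with different preferred substrates and cleavage positions. In related fungi, CLR-2 is a zinc-cluster transcription factor that switches on cellulase genes when cellulose is sensed.

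The libraries came from 2 strains, the wild type and a strain from which Mtclr-2 had been deleted, with 3 libraries each. Both strains were started from conidia in glucose medium, and their washed mycelium was then kept for 48 h in medium with 2% Avicel, a microcrystalline cellulose. The labels give neither the number of deletion isolates nor the number of cultures behind the libraries. Each p-value is therefore set against library-to-library variation, part of which can be technical. The question of the series was which genes MtCLR-2 controls on cellulose. Levels are given in FPKM, a fragment count scaled by transcript length and by the mapped fragments of the library, so that genes can be compared with each other. The row of Mtclr-2 was not analysed here, so the deletion was not checked in these data.

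The table is a selected one: the strain means of each listed gene are 2.00-fold apart or more, 1323 of them lower and 905 higher in the deletion strain. That the 4 loci differ is therefore fixed by their being listed. What the selection does not fix is how far apart the loci are from each other. The libraries of a strain correlated at 0.994 to 0.997 over the listed genes on the log2(FPKM + 1) scale. Depth is not stated, and rough estimates from the lowest values came to 12.99 to 16.81 M (mega) fragments per library.

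The 4 loci fell together but very unequally in the deletion strain. MYCTH_112089, by far the most abundant of them in the wild type, kept 2.70% ± 0.05 (SE) of its wild-type level. MYCTH_92668 kept 18.3% ± 2.4, MYCTH_80312 kept 28.8% ± 1.6 and MYCTH_79765 kept 32.8% ± 1.2 (SE from 3 libraries per strain). By mean FPKM, the locus that led the 4 in the wild type thus dropped to the third place in the deletion strain. Its libraries there overlapped those of the last, MYCTH_92668.

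MYCTH_112089 had 480.6, 476.2 and 464.2 FPKM in wild-type replicates 1 to 3 and 13.2, 12.6 and 12.6 FPKM in deletion replicates 1 to 3. Both sets were tight and far apart. On the log2(FPKM + 1) scale its change was -5.11 ± 0.04 (SE, limma adjusted p = 7.05e-14), and by the ratio of mean FPKM it fell 37.1-fold. Even at the low level the value rests on an estimated 199 to 271 fragments per deletion library. They were computed over the annotated gene span, which overstates them where a gene has introns, and from a rough depth. Counting alone at such numbers would be expected to spread the deletion libraries by more than was seen. The SE values of this locus, also that of its residual level, may therefore be too small.

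MYCTH_92668 had 63.9, 55.5 and 53.8 FPKM in the wild type. In the deletion strain it had 12.9, 8.55 and 10.2 FPKM, a mean of 10.6 ± 2.2 (SD, n = 3). This was the lowest mean FPKM of the 4 in that strain, though its libraries overlapped those of MYCTH_112089. Replicate 1 was the highest library in each strain, and the strains did not overlap. Its change was -2.36 ± 0.13 on the log2(FPKM + 1) scale (SE, limma adjusted p = 1.46e-08). The deletion values rest on an estimated 103 to 201 fragments, with the same limits of gene span and depth.

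MYCTH_80312 had 56.8, 61.2 and 59.7 FPKM in wild-type mycelium and 16.0, 18.8 and 16.4 FPKM in the deletion strain. The strains lay apart, and replicate 2 was the highest library in each. Its change was -1.74 ± 0.07 on the log2(FPKM + 1) scale (SE, limma adjusted p = 1.57e-09).

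MYCTH_79765 had 47.5, 46.5 and 50.6 FPKM in wild-type mycelium and 15.3, 15.4 and 16.7 FPKM in the deletion strain. This was the smallest fall of the 4, 3.05-fold by the ratio of mean FPKM, and the strains again lay apart. Its change was -1.55 ± 0.06 on the log2(FPKM + 1) scale (SE, limma adjusted p = 1.67e-09).

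**Figure D1:**
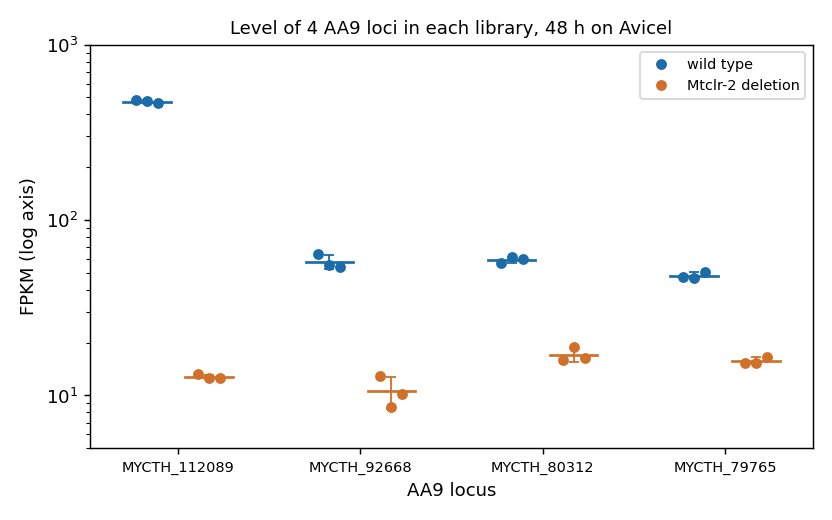
FPKM on a log axis for each of the 4 AA9 loci, with 1 point per library, a line at the mean of the 3 libraries of a strain and error bars of 1 SD. MYCTH_112089 stands at 464.2 to 480.6 FPKM in the wild type, well above the other loci, and at 12.6 to 13.2 FPKM in the deletion strain, among them.

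All 4 loci were called lower at an adjusted p under 0.05. This count carries no information about the loci, since 100% of the 2106 genes tested were called in one direction or the other and 60.7% were called lower. In the same way the 3 deletion values lay wholly below the 3 wild-type values at all 4 loci, which 59.1% of listed genes did. The median log2 change of the 4 was -2.05, beside -0.99 over all genes tested. The latter mixes genes that fell with genes that rose, so it is not the change of a typical gene.

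How common falls of this size were differed between the loci. A fall of at least 3-fold by the ratio of means was seen in 15.1% of listed genes and in all 4 loci. That percentage has the genes higher in the deletion strain in its base. The cut was not planned and lies just under the smallest fall of the 4, 3.05-fold. Of the lower genes alone, 75.5% fell less than MYCTH_79765. Among the 1323 lower genes, whose median fall was 2.44-fold, MYCTH_112089 ranked 16, MYCTH_92668 ranked 85, MYCTH_80312 ranked 241 and MYCTH_79765 ranked 324. Set only against lower genes whose wild-type level was within a factor of 2 of its own, MYCTH_112089 had the largest fall, ahead of 118 other genes, whose median fall was 2.47-fold. MYCTH_92668 was exceeded by 16 of 430 such genes, MYCTH_80312 by 54 of 432 and MYCTH_79765 by 87 of 456. These ranks are a description of a selected table.

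**Figure D2:**
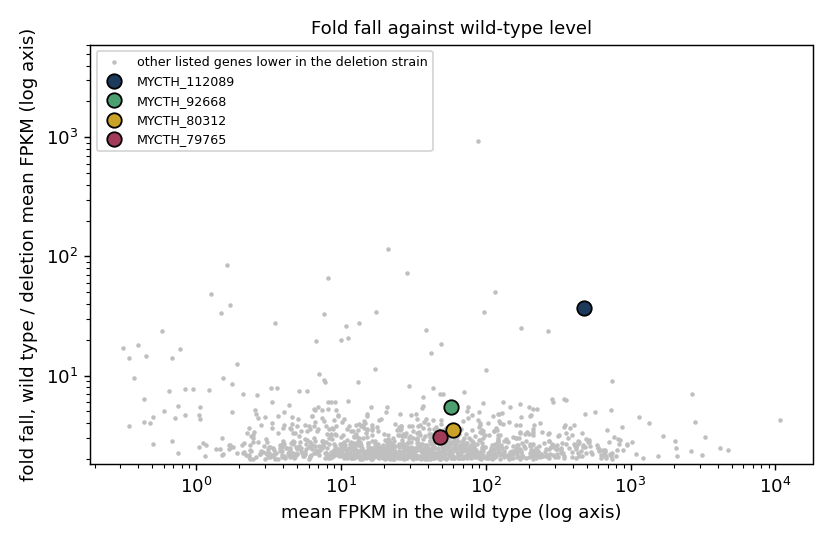
Fold fall (wild-type mean FPKM over deletion mean FPKM) against wild-type mean FPKM, both on log axes, for the 1316 genes that were lower in the deletion strain and above 0 there. MYCTH_112089, at 37.1-fold, lies above the other genes of similar level, while MYCTH_80312 and MYCTH_79765, at 3.47-fold and 3.05-fold, lie near the dense part of the plot.

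In level, MYCTH_112089 held rank 76 of the 2228 listed genes in wild-type mycelium and rank 1187 in the deletion strain. The other loci moved less, MYCTH_80312 from rank 587 to 1051, MYCTH_92668 from 596 to 1275 and MYCTH_79765 from 690 to 1091. Within the wild type the order was MYCTH_112089, MYCTH_80312, MYCTH_92668 and MYCTH_79765. The second locus was 7.997-fold below the first. MYCTH_80312 and MYCTH_92668 overlapped between libraries and could not be put in order, while the last, MYCTH_79765, lay below both.

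In the deletion strain the order was MYCTH_80312, MYCTH_79765, MYCTH_112089 and MYCTH_92668, and the top mean was only 1.62-fold above the lowest. MYCTH_80312 and MYCTH_79765 overlapped, as did MYCTH_112089 and MYCTH_92668. The first pair of loci lay above the second pair in every library. The chosen set of loci, led by MYCTH_112089 in the wild type, was thus nearly level in the deletion strain. The set is not the whole family, so whether the family as a whole was level was not tested.

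Whether the loci depended equally on the deleted gene was asked by the ratio of 2 loci within each library. Such a ratio does not change with the scaling of the library. Over the 6 pairs, 5 had ratios that did not overlap between strains. How often other pairs of listed genes do so was not counted, so this number by itself says little about the loci. Each of those 5 gave p = 0.1 in an exact permutation test (two-sided), the smallest that 3 against 3 libraries can give, and 0.12 after Benjamini-Hochberg adjustment over the 6 pairs. The design therefore cannot pass a threshold of 0.05 for any pair.

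The 3 pairs with MYCTH_112089 moved furthest. Its log2 ratio to MYCTH_92668 was 2.91, 3.10 and 3.11 in wild-type mycelium and 0.03, 0.55 and 0.31 in the deletion strain. This is a difference of -2.74 ± 0.16 (SE), a 6.70-fold larger loss for MYCTH_112089. Against MYCTH_80312 the difference was -3.42 ± 0.10, or 10.7-fold, and against MYCTH_79765 it was -3.60 ± 0.08, or 12.2-fold. In the wild type each of these ratios was near 3, and in the deletion strain each was close to 0.

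The other loci differed less from each other. MYCTH_92668 lost 1.81-fold more than MYCTH_79765, with a log2 ratio of 0.43, 0.26 and 0.09 in wild-type mycelium and -0.24, -0.85 and -0.71 in the deletion strain (difference -0.86 ± 0.21 SE). It lost 1.59-fold more than MYCTH_80312, with a difference of -0.67 ± 0.26 SE, which ran from -1.31 to -0.16 over the 9 comparisons of a deletion with a wild-type library. MYCTH_80312 and MYCTH_79765 could not be told apart in their dependence. Their log2 ratio was 0.26, 0.40 and 0.24 in wild-type mycelium and 0.06, 0.29 and -0.02 in the deletion strain. The difference was -0.19 ± 0.10 SE (exact permutation p = 0.3, two-sided, also 0.3 after adjustment), and over the same 9 comparisons it ran from -0.42 to 0.05.

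**Figure D3:**
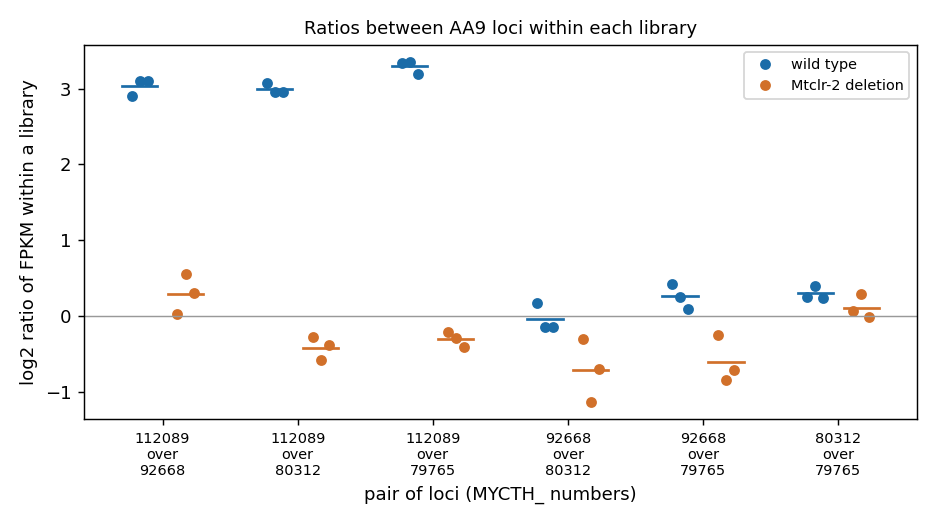
The log2 ratio of FPKM between 2 loci within each library, for the 6 pairs of AA9 loci, with 1 point per library and a line at the mean of a strain. The ratios of MYCTH_112089 to the others lie at 2.91 to 3.36 in wild-type mycelium and at -0.58 to 0.55 in the deletion strain, while the ratios of MYCTH_80312 to MYCTH_79765 overlap.

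The summed level of the 4 loci was 648.7, 639.4 and 628.3 FPKM in wild-type mycelium and 57.5, 55.3 and 55.8 FPKM in the deletion strain. The sum thus fell 11.4-fold, to 8.80% of its wild-type level (exact permutation p = 0.1, two-sided, the smallest possible). MYCTH_112089 accounted for 79.1% of the FPKM lost from the sum, MYCTH_92668 for 8.10%, MYCTH_80312 for 7.23% and MYCTH_79765 for 5.56%. Without MYCTH_112089, a choice made after its values were seen, the sum of the other loci went from 165.2 ± 2.7 to 43.4 ± 0.8 FPKM (SD, n = 3), or to 26.3%.

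The make-up of the sum changed with it. MYCTH_112089 held 74.1%, 74.5% and 73.9% of the sum in wild-type replicates 1 to 3 and 22.98%, 22.71% and 22.50% in deletion replicates 1 to 3. Its share had the smallest SD of the 4 in each strain, 0.31 and 0.24 percentage points, which rests on 3 libraries each. The share of MYCTH_80312 went from 9.28% ± 0.46 to 30.4% ± 3.2 (SD, n = 3). That of MYCTH_79765 went from 7.55% ± 0.44 to 28.1% ± 1.6, and that of MYCTH_92668 from 9.03% ± 0.71 to 18.7% ± 3.6.

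No share overlapped between strains, and each gave an exact permutation p of 0.1 (two-sided, also 0.1 after adjustment over the 4 shares). The shares sum to 100%, so they are not independent. How often shares within other sets of listed genes would overlap was not counted. The 3 loci whose share rose had all fallen in level.

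**Figure D4:**
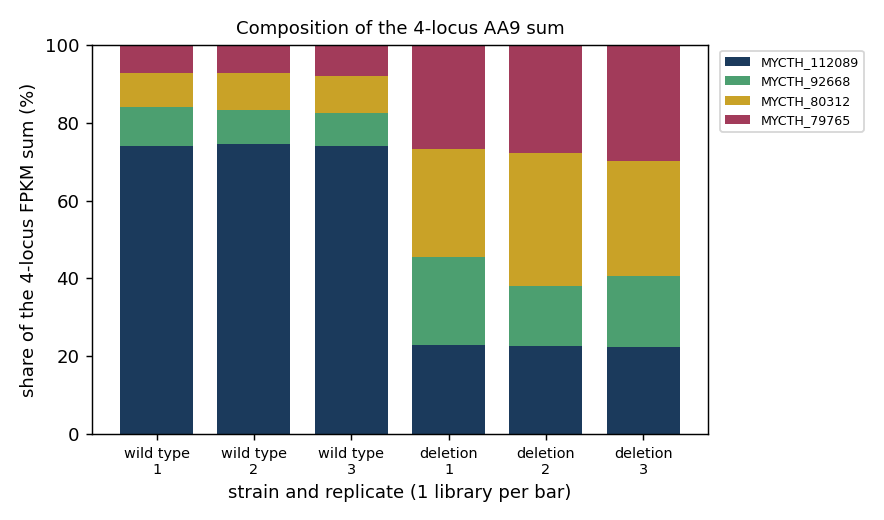
Share of each locus in the FPKM sum of the 4 AA9 loci, in percent, with 1 bar per library. MYCTH_112089 takes 73.9% to 74.5% of each wild-type bar and 22.50% to 22.98% of each deletion bar, and the other loci widen in the deletion strain.

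Replicate spread differed between the loci. MYCTH_92668 was the most variable in both strains, its coefficient of variation being 9.37% among wild-type and 21.0% among deletion libraries. Listed genes within a factor of 2 of its level had medians of 3.84% and 8.06%, and 95.7% and 93.2% of them varied less. In each strain replicate 1 stood above its mean, by 10.7% in wild-type mycelium and by 22.6% in the deletion strain.

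MYCTH_112089 varied little between the libraries at hand, by 1.79% among wild-type and 2.95% among deletion libraries. Of the 683 listed genes near its deletion level, with a median of 7.53%, only 12.01% varied less. At an estimated 199 to 271 fragments per deletion library, counting alone would be expected to give a wider spread. So low a value from 3 libraries is therefore not evidence of a steadier gene. MYCTH_79765 varied by 4.44% and 4.73%, and MYCTH_80312 by 3.83% and 8.79%. Their medians for genes of like level were 4.11% and 6.92% for MYCTH_79765, and 3.84% and 6.82% for MYCTH_80312. The residual percentage of MYCTH_92668 had the largest SE of the 4.

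**Figure D5:**
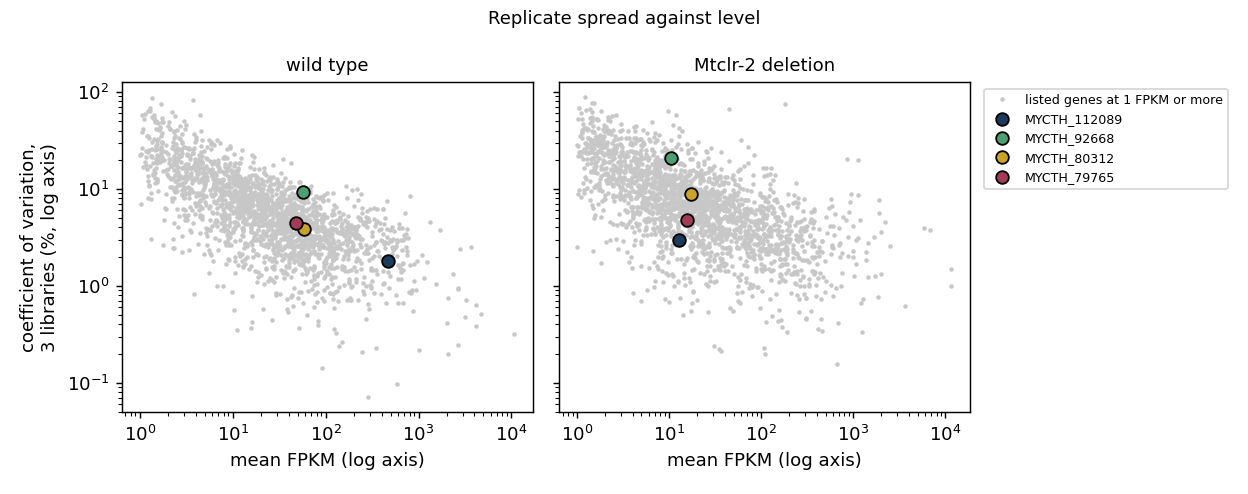
Coefficient of variation over the 3 libraries of a strain against mean FPKM, both on log axes, for listed genes at 1 FPKM or more. MYCTH_92668 lies high among genes of its level in both strains (9.37% and 21.0%), and MYCTH_112089 lies low in the deletion strain (2.95%).

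The 4 loci were also set beside 5 loci recalled from published work as hydrolases of cellulose breakdown, MYCTH_109566, MYCTH_66729, MYCTH_86753, MYCTH_111372 and MYCTH_115968. No table used here gives their products. All 5 were called lower, with a median log2 change of -2.21, against the 60.7% of tested genes that were. Per FPKM of these 5 loci summed, the 4 AA9 loci had 1.25, 1.27 and 1.25 FPKM in wild-type mycelium and 0.43, 0.39 and 0.42 FPKM in the deletion strain (exact permutation p = 0.1, two-sided, the smallest possible). The AA9 sum thus fell further than the hydrolase sum in these libraries.

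Within the sum of these 4 loci, that shift came with MYCTH_112089. Counted without it, the AA9 loci had 0.325 ± 0.001 FPKM per hydrolase FPKM in wild-type mycelium and 0.319 ± 0.018 in the deletion strain (SD, n = 3), with overlapping libraries. No test is given, since the locus was left out after its values were seen. The hydrolase sum was left whole. MYCTH_66729 made up 213.1 of its 507.9 FPKM in wild-type mycelium and 80.5 of 136.5 FPKM in the deletion strain. The ratio thus depends much on that locus. Single hydrolase loci were themselves unequal, and kept from 1.38% ± 0.32 (MYCTH_111372) to 37.8% ± 1.1 (MYCTH_66729) of their wild-type level (SE). The residual percentages of the 4 AA9 loci lie within that range.

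Another 12 loci were held as possible further AA9 genes, recalled and likewise unchecked. Of these, 6 are in the table and the others were not analysed here. The most abundant, MYCTH_110651, went from 1146 ± 13.8 to 257.8 ± 1.4 FPKM (SD, n = 3) and kept 22.5% ± 0.2 (SE), a residual between those of MYCTH_92668 and MYCTH_80312. It exceeded MYCTH_112089 in both strains. MYCTH_46583 went from 48.8 ± 2.5 to 2.63 ± 0.42 FPKM and kept 5.39% ± 0.53, and MYCTH_55803 went from 17.6 ± 1.5 to 0.51 ± 0.37 FPKM and kept 2.92% ± 1.22.

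At lower levels, MYCTH_2298502 went from 8.61 ± 0.96 to 1.44 ± 0.57 FPKM and MYCTH_100518 from 3.52 ± 0.58 to 0.13 ± 0.11 FPKM, the latter listed at 0 in deletion replicate 3. MYCTH_2311323 alone of the 6 was higher in the deletion strain, from 0.53 ± 0.09 to 1.93 ± 0.12 FPKM. So 5 of the 6 were called lower, beside 60.7% of all genes tested. Their summed FPKM fell 4.64-fold, and that of the 5 hydrolase loci fell 3.72-fold. If these loci belong to the family, MYCTH_112089 is not its most abundant member, and its share of the wild-type sum over all 10 loci would be 25.4% in place of 74.1%.

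For each locus, the 2 tested genes with the most similar profile over the 6 libraries were looked up among 2102 genes, by the Euclidean distance between centred log2(FPKM + 1) values. Those nearest to MYCTH_112089 were MYCTH_97137 (distance 0.48), which went from 115.3 to 2.29 FPKM, and MYCTH_51545 (0.57), which went from 97.95 to 2.89 FPKM. The nearest to MYCTH_92668 were MYCTH_2313117 (0.27) and MYCTH_2145572 (0.30). MYCTH_80312 was nearest to MYCTH_105847 and MYCTH_117063, each at 0.13 or 0.14, and MYCTH_79765 to MYCTH_2307275 (0.07) and MYCTH_2297125 (0.08). With 3 libraries per strain these distances mostly reflect the size of the fall.

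In the RefSeq gene order the 4 loci were not next to each other. Of the 16 annotated genes at 1 or 2 places from them, 2 were listed. MYCTH_33936, at 2 places from MYCTH_112089, went from 13.4 ± 1.5 to 0.49 ± 0.22 FPKM and kept 3.63% ± 0.96 (SE). MYCTH_2300433, next to MYCTH_79765, went from 110.6 ± 0.9 to 55.2 ± 4.3 FPKM (SD, n = 3). Both were lower in the deletion strain, as were 1323 of the 2228 listed genes. MYCTH_2300433, at 2.00-fold, lay at the edge of the selection. A link between position and the fall was not tested.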

How the data were processed

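The values are FPKM as deposited by the authors, 1 column per library. Columns were matched to samples by the library names in the labels. The submitters' processing notes name HISAT2, RSEM, DESeq2, StringTie 1.3.1 and fastp 0.18.0, without settings. Neither labels nor headers name a genome build (not given in the sources used here), so no coordinates are printed. Names and order of genes are from RefSeq assembly ASM22609v1.

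Changes were tested with limma 3.58.1 (R 4.3.3) with a variance trend, two-sided, using log2(FPKM + 1). Adjustment (Benjamini-Hochberg) ran over the 2106 genes whose mean reached 1 FPKM. This scale understates the change of low genes. The fit was also run on simulated data in which most genes were unchanged, unlike the listed genes, and nothing here rests on that run. Sums, shares and ratios used FPKM without a pseudocount, in Python 3.11.15 with numpy 2.4.6 and pandas 2.3.3. Depth was estimated as the step on which most values of FPKM times gene span fell. Only 10 to 35 values per library fell on it, so it is rough.

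Members, lists and tests were chosen with earlier results of these data known. The named genes were the 4 loci, both recalled lists and 2 nearest profiles per locus. Neighbours in the gene order were added after the data were seen. Alternatives were other pseudocounts, filters and scalings, no trend, a replicate block and leaving out each library.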

Additional observations from a re-analysis of the deposited data

How the results depend on the processing

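In the 14 alternatives of the gene-wise test, including leaving out each library, all 4 loci stayed lower at an adjusted p under 0.05. This says little about the loci, since nearly all tested genes were called in most alternatives, such as 2221 of 2228 without a filter. The exception was median-of-ratios factors, with 1532 of 2106 called. Median-of-ratios factors take the median of genes that were all selected for a difference as unchanged, and they moved the median log2 change of all tested genes from -0.99 to -0.06. With them 705 genes in place of 1279 were called lower, 46.0% of the calls in place of 60.7%. The residual levels rose to 5.46% for MYCTH_112089, 37.0% for MYCTH_92668, 58.4% for MYCTH_80312 and 66.3% for MYCTH_79765, in the same order. Ratios between loci and shares do not depend on such factors.

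The range of log2 change within the 4 loci was 3.60, and 0.84 without MYCTH_112089. Counting the 6 recalled loci in the sum, an alternative chosen after seeing the data, made every share difference smaller by more than 1.5 times. The share of MYCTH_112089 changed by -21.4 percentage points in place of -51.4, MYCTH_80312 gained 2.15 in place of 21.2, MYCTH_79765 gained 2.34 in place of 20.6, and MYCTH_92668 gained 0.19 in place of 9.69. Same-numbered libraries showed little pairing over all tested genes: their deviations from the strain means correlated at -0.0046 to 0.082. At each of the 4 loci, however, the highest library had the same replicate number in both strains. With a replicate block the SE of the log2 change of MYCTH_92668 was 0.081 in place of 0.126. Pairing at these loci was not tested. The replicate block left all 4 called and 2106 genes called.

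Leaving out 1 library moved the difference between MYCTH_80312 and MYCTH_79765, which was not called, between -0.28 and -0.12, the latter without deletion replicate 3. No other level change, pair difference, range, sum, share difference or residual level of the loci moved by over 1.5 times. The difference between MYCTH_92668 and MYCTH_80312 ran from -0.88 to -0.46. Its exact permutation p (two-sided) was 0.2 when any 1 wild-type library was left out. That of MYCTH_92668 against MYCTH_79765 was 0.2 without wild-type replicate 1 or 2. Shares with protein lengths or with further AA9 genes found by product or similarity were not run, because no products or sequences were used here.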
